A study of Mus musculus with 20 samples.

Results

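A set of 10 genes known as pericentral or Wnt-dependent hepatocyte genes was followed across the 5 treatment groups of a mouse liver RNA-seq series. The genes were Rnf43, Znrf3, Axin2, Lgr5, Tbx3, Glul, Slc1a2, Rhbg, Gulo and Lect2. They were taken by gene symbol, and all 10 are among the 13319 symbols counted and passed the filter on low counts. All animals were male, ate a western diet and received their treatment every day for 16 days. The 5 groups of 4 mice each, with 1 liver library per mouse, were control, glucagon, T3 (triiodothyronine, the active thyroid hormone), glucagon given together with T3 (called combination) and a group labelled Cp. The series also describes a molecule that joins glucagon and T3, and Cp was taken as that hybrid by elimination, since no label spells it out. The sources used here do not give strain, age, dose, vehicle or hour of collection.

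Hepatocytes differ along the liver lobule between the portal vein and the central vein. Wnt ligands and R-spondins from endothelial cells of the central vein act on nearby hepatocytes through Frizzled receptors with the co-receptors Lrp5 and Lrp6. This stabilises beta-catenin, which acts with TCF/LEF factors on the genes of the pericentral programme, glutamine synthetase (Glul) among them. Several of those targets feed back on the pathway: Rnf43 and Znrf3 are ubiquitin ligases that remove Frizzled receptors from the cell surface, and Axin2 is a scaffold of the complex that marks beta-catenin for destruction. Lgr5 is a receptor for R-spondins, which restrain Rnf43 and Znrf3.

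Values are CPM, counts scaled to equal library size after TMM correction, and replicates 1 to 4 are given in that order. A gene was called changed where its adjusted p (quasi-likelihood test of edgeR, adjusted over 12907 genes by Benjamini-Hochberg) was under 0.05. Library totals ran from 6091917 to 23195658 counts, with T3 the shallowest group at 6091917 to 7996156. Replicates 1 to 4 of control, glucagon, combination and Cp were sequenced in lanes 1 to 4, and all 4 T3 libraries in lane 5, so T3 and lane cannot be told apart in any contrast that holds the T3 group. These are whole livers, so fewer cells of a type and less RNA per cell cannot be told apart, and zonation itself was not measured. As a check of the liver label, 11 hepatocyte markers summed to 89470 to 286300 CPM over the libraries. The 20 endothelial markers listed summed to 629.4 to 1059 CPM. No marker of either list was at 0 in any library, so that alone does not tell the tissue.

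The controls were less alike than the treated mice. Over the 10 genes the median coefficient of variation was 51.35% among controls, against 10.18% to 22.3% in the 4 treated groups. Control 2 was the lowest control for 7 of the 10 genes (Glul, Lgr5, Rnf43, Znrf3, Tbx3, Slc1a2 and Gulo), and for 24.5% of all genes. Its interferon-induced genes summed to 2329 CPM, where the remaining controls had 136.5 to 364.6, and its skeletal muscle genes to 1005 CPM. Glucagon 3 held 3797 CPM of muscle genes, Cp 4 held 639.7 CPM and combination 4 held 382.3 CPM. Where a call among the 10 genes changes without control 2, alone or with glucagon 3, that result is given too. The part of interferon-induced or muscle RNA in such calls was not tested.

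**Figure D1:**
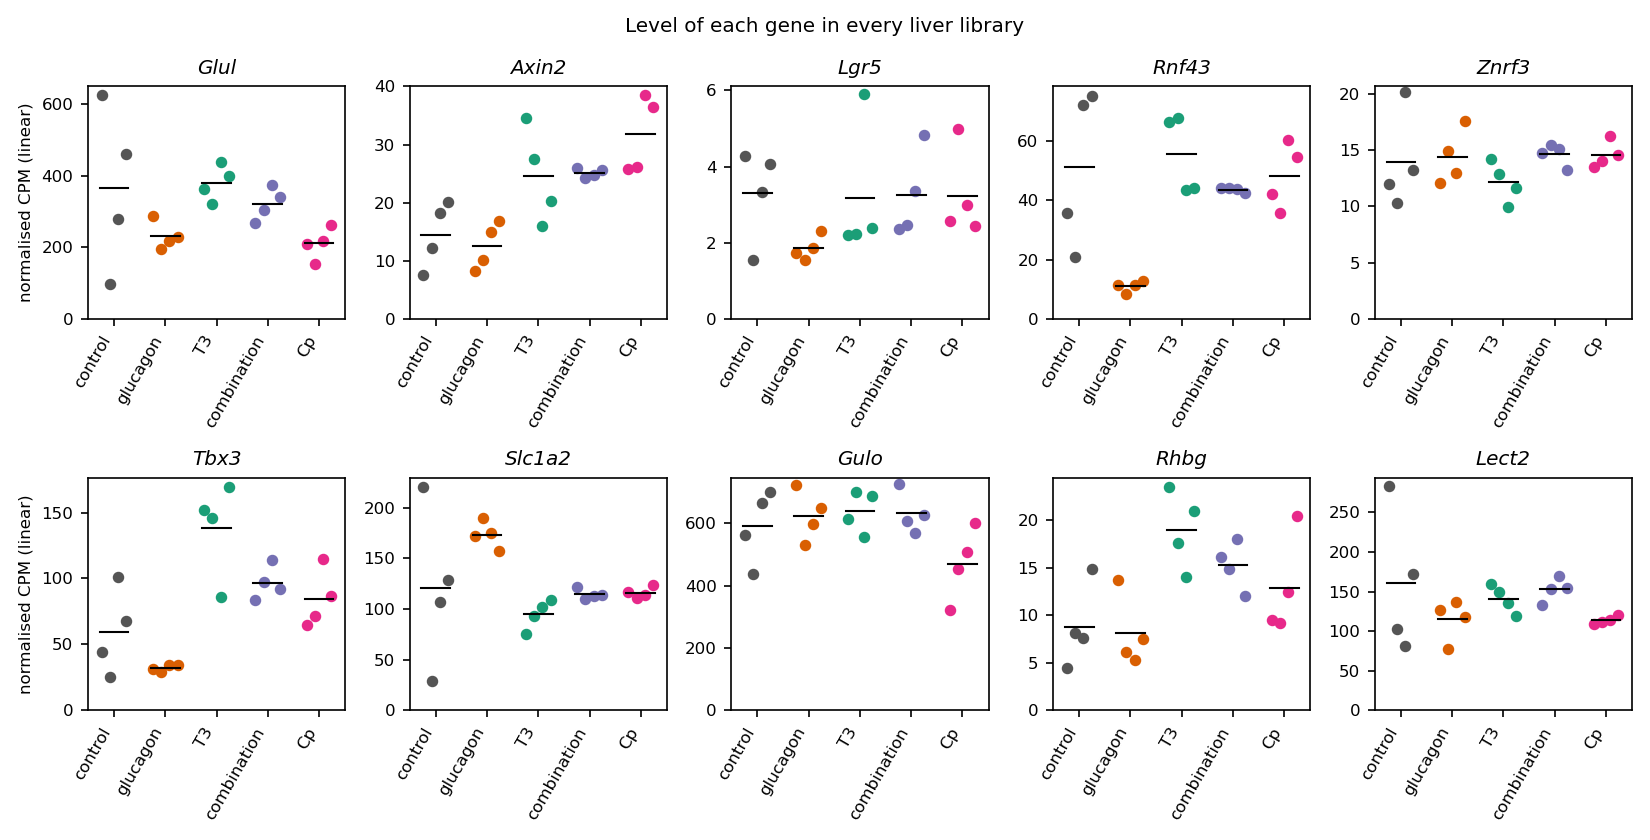
Level of the 10 genes in each of the 20 libraries (points, linear CPM axis from 0, replicates 1 to 4 from left to right) with the group mean (bar). Rnf43 in glucagon lies between 8.28 and 12.8 CPM, below every other library, while the control points of Glul, Slc1a2 and Lect2 spread widely.

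RefSeq promoters (build GRCm38.p6) were given for 5 of the 10 genes: Glul, Axin2, Rnf43, Slc1a2 and Lect2. Of these, 4 are printed because they contrast 2 genes that were called in several comparisons, Rnf43 and Axin2, with the only 2 that held a TCF/LEF motif, Slc1a2 and Lect2. Each is the 250 bases before a transcript start, 5′ to 3′ on the gene's strand, and capitals mark a match to CTTTGAT read on the opposite strand.
Rnf43, chr11:87662837-87663086, plus strand: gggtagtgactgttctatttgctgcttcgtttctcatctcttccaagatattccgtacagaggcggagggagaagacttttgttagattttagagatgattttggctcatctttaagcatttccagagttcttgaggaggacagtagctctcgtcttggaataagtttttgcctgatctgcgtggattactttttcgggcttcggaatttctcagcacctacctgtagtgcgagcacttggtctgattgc
Axin2, chr11:108920099-108920348, plus strand: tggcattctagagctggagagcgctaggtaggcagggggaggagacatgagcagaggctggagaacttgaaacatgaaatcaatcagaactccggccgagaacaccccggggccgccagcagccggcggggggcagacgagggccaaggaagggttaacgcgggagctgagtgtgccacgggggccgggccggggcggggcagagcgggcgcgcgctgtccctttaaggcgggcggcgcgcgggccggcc
Slc1a2, chr2:102706188-102706437, plus strand: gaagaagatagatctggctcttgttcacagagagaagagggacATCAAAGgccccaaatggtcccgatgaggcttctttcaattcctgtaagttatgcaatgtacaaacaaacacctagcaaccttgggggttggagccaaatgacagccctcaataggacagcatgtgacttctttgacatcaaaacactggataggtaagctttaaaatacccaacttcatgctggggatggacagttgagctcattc
Lect2, chr13:56548539-56548788, minus strand: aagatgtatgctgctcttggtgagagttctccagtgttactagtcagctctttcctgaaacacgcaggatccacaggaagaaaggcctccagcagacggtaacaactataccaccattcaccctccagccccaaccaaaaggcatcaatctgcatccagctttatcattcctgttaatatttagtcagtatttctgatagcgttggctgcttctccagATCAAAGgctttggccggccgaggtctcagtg
CTTTGAT was searched on both strands, and 3.21% of 32851 promoters of this length held it. In Slc1a2 it lay 201 to 207 bases before the listed start, and in Lect2 26 to 32 bases before it. The Slc1a2 window lies inside the gene, which begins at chr2:102658659 in GENCODE M21, and the bases before that position were not searched. The Rnf43 window printed also lies inside its gene, which begins at chr11:87662722. Neither CTTTGAT nor CTTTGAA (4.46% of promoters) was found in the windows of Rnf43, of which the first of 2 listed starts is shown, nor in those of Axin2 and Glul. The cyclic AMP response element TGACGTCA (1.55%), its short form TGACG (17.8%) and the thyroid hormone response element of 2 AGGTCA repeats with 4 bases between them (0.0152%) had no match in any of the 6 windows. These letters describe 250 bases only, and nothing about binding was measured.

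Rnf43 (chr11:87662722-87735539, plus strand) was the gene of the set that fell furthest with glucagon. Its level was 35.9, 21.0, 72.4 and 75.3 CPM in controls and 11.3, 8.28, 11.6 and 12.8 CPM in glucagon. Every glucagon library was below every control, control 2 included. The fall was 4.65-fold, log2 -2.22 ± 0.31 (SE; edgeR adjusted p = 2.92e-05), and it was seen in all 4 lanes, from -2.63 to -1.32. With T3 given as well it was not seen: Rnf43 was at 44.2, 44.2, 43.7 and 42.4 CPM in the combination, 3.98-fold above glucagon (log2 1.99 ± 0.31, adjusted p = 8.89e-05), and higher in all 4 lanes. Cp had 42.1, 35.9, 60.3 and 54.7 CPM, 4.39-fold above glucagon (log2 2.13 ± 0.31, adjusted p = 4.69e-05). T3 alone had 66.6, 68.0, 43.5 and 44.1 CPM, within the range of the controls. Relative to the glucagon effect added to the T3 effect, the combination was higher by log2 1.87 ± 0.42 (adjusted p = 0.0125), so the effect of T3 on Rnf43 was not the same with and without glucagon. It was the 1 gene of the 10 called for this departure, which 3.73% of all genes were (1.60% upward). These Rnf43 calls held under every alternative run, with log2 -2.46 to -1.96 against control as single libraries were left out.

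Znrf3 (chr11:5276324-5444847, minus strand), the partner ligase of Rnf43, showed no such pattern. Its level was 12.0, 10.3, 20.2 and 13.2 CPM in controls and 12.1, 14.9, 12.9 and 17.6 CPM in glucagon, with full overlap. The change was log2 0.05 ± 0.18, with a 95% interval from -0.33 to 0.43, which does not reach the size measured for Rnf43. Over the other groups Znrf3 ran from 9.91 to 16.2 CPM, and it was called in no comparison.

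Axin2 (chr11:108920349-108950783, plus strand) was higher in the combination and in Cp than in glucagon and control. It was at 7.49, 12.2, 18.1 and 20.1 CPM in controls, and at 8.24, 10.1, 14.9 and 16.8 CPM in glucagon, which overlapped them (log2 -0.21 ± 0.28, adjusted p = 0.638). The combination had 25.9, 24.2, 24.7 and 25.6 CPM and Cp 25.8, 26.2, 38.5 and 36.5 CPM. All 8 of these libraries were above all 4 controls and all 4 glucagon libraries. Cp was 2.20-fold above control (log2 1.14 ± 0.28, adjusted p = 0.00593), a call that held under every alternative run. The combination was 1.74-fold above control (log2 0.80 ± 0.28) at an adjusted p of 0.0492. That call was lost, at adjusted p 0.0518 to 0.133, with RLE factors, in a fit of the 2 groups alone, and without control 1, control 2 or any 1 combination library. Without control 2 it was log2 0.74 (adjusted p = 0.0886), and with glucagon 3 left out as well 0.72 (adjusted p = 0.0966). With lane as a block on the 16 libraries of lanes 1 to 4 it was log2 0.90 (adjusted p = 0.00801). Against glucagon Axin2 was 2.02-fold higher in the combination (log2 1.01 ± 0.28, adjusted p = 0.0134; 0.0522 without glucagon 1) and 2.54-fold higher in Cp (log2 1.35 ± 0.28, adjusted p = 0.00159).

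T3 libraries had 34.6, 27.5, 16.0 and 20.3 CPM of Axin2, of which 3 lay above all controls, the nearest by a narrow margin, and 1 within their range. The difference from control, log2 0.77 ± 0.28, was not called (adjusted p = 0.063), but was in DESeq2 (adjusted p = 0.0442). A block on replicate number also called it (log2 0.86, adjusted p = 0.0481), but in T3 that number marks no lane. Axin2 was also higher in T3 than in glucagon (log2 0.98 ± 0.29, adjusted p = 0.0126; 0.0601 without T3 replicate 1). In control and in glucagon the lane 1 library was the lowest and the lane 4 library the highest for Axin2, and the combination varied by a standard deviation of 0.81 CPM only. Within lanes the combination exceeded control in 4 of 4 (log2 0.35 to 1.77), as did Cp (0.85 to 1.77).

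**Figure D2:**
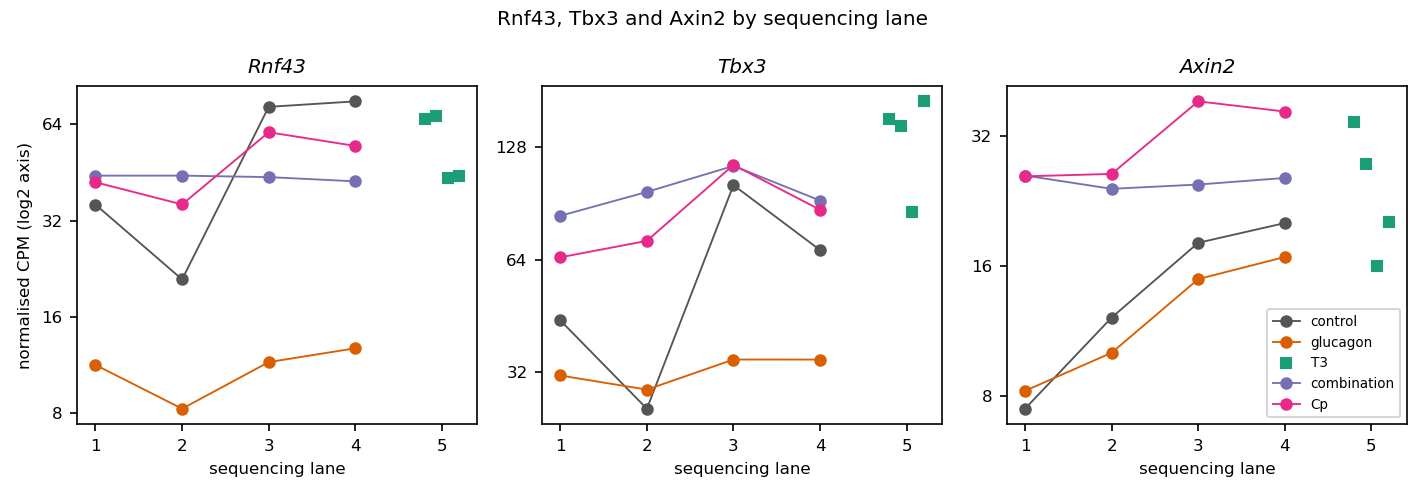
Rnf43, Tbx3 and Axin2 by sequencing lane (points, log2 CPM axis; lines join libraries of 1 group, and the 4 T3 libraries share lane 5). Within each of lanes 1 to 4, glucagon lies below the combination and Cp for all 3 genes.

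Lgr5 (chr10:115450311-115587780, minus strand) was the scarcest of the set, with 15 to 91 counts per library. It was at 4.28, 1.55, 3.33 and 4.07 CPM in controls and 1.73, 1.55, 1.87 and 2.32 CPM in glucagon. Control 2 was just below the lowest glucagon library, and the other 3 controls were above all of them. The difference was log2 -0.83 ± 0.37 and not called (adjusted p = 0.123); without control 2 it was -1.06 (adjusted p = 0.0385). Cp had 2.56, 4.98, 2.98 and 2.43 CPM and the combination 2.37, 2.47, 3.37 and 4.83 CPM, both above all glucagon libraries by a narrow margin. Neither was called against glucagon (log2 0.81 ± 0.37, adjusted p = 0.122, and 0.80 ± 0.37, adjusted p = 0.137), though both were when only the 2 groups compared were fitted (adjusted p = 0.0466 and 0.0436). T3 had 2.21, 2.23, 5.90 and 2.40 CPM, so 1 library made most of that group's spread.

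Tbx3 (chr5:119670669-119684724, plus strand), a T-box transcription factor and Wnt target of liver, was highest with T3. Controls had 44.1, 25.6, 101.2 and 67.9 CPM and T3 151.9, 145.5, 85.6 and 169.4 CPM. Control 3 and T3 replicate 3 overlapped, and the other T3 libraries were above all controls. The rise was 2.32-fold (log2 1.21 ± 0.30, adjusted p = 0.00914; 0.0909 in a fit of these 2 groups alone). Glucagon had 31.4, 28.8, 34.6 and 34.6 CPM, log2 -0.88 ± 0.30 against control (adjusted p = 0.0404). Glucagon was lower in 3 of 4 lanes (log2 -1.54 to 0.17 over the 4), since control 2 was below every glucagon library. The call did not hold with replicate number as a block over all libraries (log2 -0.80, adjusted p = 0.0572) or with the 2 groups alone (0.167). It did with that block on the 16 libraries of lanes 1 to 4 (log2 -0.76, adjusted p = 0.0398). It was also lost without control 3 (log2 -0.51, adjusted p = 0.166), without control 4 (0.0871) and without any 1 glucagon library (0.0654 to 0.101).

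Against glucagon, Tbx3 differed with no overlap in the other 3 groups. The combination, at 83.8, 97.1, 113.9 and 92.1 CPM, was 2.99-fold higher (log2 1.58 ± 0.30, adjusted p = 0.000727). Cp, at 64.9, 71.8, 114.6 and 87.0 CPM, was 2.61-fold higher (log2 1.39 ± 0.30, adjusted p = 0.00196). T3 was 4.27-fold higher (log2 2.09 ± 0.31, adjusted p = 3.37e-05). These 3 calls held under every alternative run. Against control, the combination (log2 0.70 ± 0.30, adjusted p = 0.0994) and Cp (0.51 ± 0.30, adjusted p = 0.226) were not called. Within lanes both were higher in 4 of 4 (log2 0.17 to 1.92 and 0.18 to 1.48), and with lane as a block on these 16 libraries the combination was called (log2 0.81, adjusted p = 0.0295) and Cp was not (0.58, adjusted p = 0.0918). The values moved both ways with single controls. Without control 3 both were called (log2 1.06, adjusted p = 0.00794, and 0.87, adjusted p = 0.0231), and without control 2 they were 0.46 and 0.27, not called.

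Glul (chr1:153899944-153909723, plus strand), the enzyme that fixes ammonia into glutamine in pericentral hepatocytes, had its widest spread in controls. They stood at 625.2, 96.4, 280.6 and 460.8 CPM, so control 2 was below all 16 treated libraries and control 1 above them. Glucagon had 288.5, 195.5, 217.2 and 229.2 CPM (log2 -0.65 ± 0.34, adjusted p = 0.181). Cp had 209.6, 153.7, 218.4 and 263.7 CPM (log2 -0.79 ± 0.34, adjusted p = 0.097). Neither was called against control, and the values rest on which controls are kept. Without control 2 both were called, glucagon at log2 -0.96 (adjusted p = 0.00526) and Cp at -1.10 (adjusted p = 0.0013). With glucagon 3 left out as well they were -0.94 (adjusted p = 0.0155) and -1.12 (adjusted p = 0.00159). Without control 1 they shrank to -0.26 (adjusted p = 0.626) and -0.40 (adjusted p = 0.399).

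Among the treated groups Glul had its highest means in T3 and the combination, 381.3 ± 50.2 and 321.7 ± 46.6 CPM (SD, n = 4). T3 libraries had 364.5, 322.0, 440.2 and 398.7 CPM and combination libraries 267.4, 303.3, 375.3 and 340.9 CPM. Every Cp library was below every library of both groups. The differences of Cp were log2 -0.85 ± 0.34 from T3 (adjusted p = 0.142) and -0.61 ± 0.34 from the combination (adjusted p = 0.763). Fitted on these 2 groups alone, Cp against T3 was called (log2 -0.86, adjusted p = 0.00992). T3 was above glucagon with no overlap (log2 0.71 ± 0.34, adjusted p = 0.117), which was called without control 2 and glucagon 3 (log2 0.68, adjusted p = 0.0388) and in a fit of the 2 groups alone (adjusted p = 0.00264).

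Slc1a2 (chr2:102658659-102790784, plus strand), a glutamate transporter, had its highest treated levels with glucagon. Those libraries had 171.9, 189.9, 174.6 and 156.9 CPM, above all 12 libraries of the other treated groups. The latter had 75.5, 92.7, 102.0 and 108.5 CPM in T3, 122.1, 109.8, 112.5 and 113.4 CPM in the combination, and 116.6, 110.5, 114.3 and 123.5 CPM in Cp. Controls, at 220.3, 28.4, 106.7 and 129.0 CPM, lay on both sides of glucagon (log2 0.52 ± 0.33, adjusted p = 0.282). That value was 0.99 without control 1 (adjusted p = 0.0252) and 0.20, not called, without control 2. T3 against control was log2 -0.36 ± 0.33 (adjusted p = 0.484), and without control 2 it was -0.68 and called (adjusted p = 0.016). The edgeR fit over all groups with TMM factors called none of the differences from glucagon: T3 at log2 -0.87 ± 0.33 (adjusted p = 0.0518), the combination at -0.60 ± 0.33 (0.214) and Cp at -0.58 ± 0.33 (0.22). T3 was called with RLE factors (adjusted p = 0.0473) and in DESeq2 (0.0265). Fits of the 2 groups alone called T3 (adjusted p = 0.000314), the combination (0.000912) and Cp (0.00181). Without control 2 and glucagon 3 all 3 were called (adjusted p = 0.00217, 0.0301 and 0.0348), as was T3 against control (log2 -0.69, adjusted p = 0.0182).

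Rhbg (chr3:88242874-88254709, minus strand), an ammonia transporter of the Rhesus family, was at 4.44, 8.11, 7.65 and 14.9 CPM in controls and 23.6, 17.6, 14.0 and 20.9 CPM in T3. Control 4 alone reached into the T3 range. T3 was 2.18-fold higher (log2 1.12 ± 0.34, adjusted p = 0.0281), a call lost without control 1 (log2 0.90, adjusted p = 0.091), without T3 replicate 1 (0.0807), without T3 replicate 4 (0.0651) and in a fit of the 2 groups alone (0.0874). Against glucagon, at 13.7, 6.14, 5.24 and 7.55 CPM, T3 was 2.32-fold higher with no overlap (log2 1.22 ± 0.34, adjusted p = 0.0102). The combination had 16.1, 14.9, 18.1 and 12.1 CPM and Cp 9.46, 9.20, 12.4 and 20.4 CPM. The combination was not called above glucagon (log2 0.90 ± 0.34, adjusted p = 0.0603). With replicate number as a block over all libraries it was (0.95, adjusted p = 0.0493), and on lanes 1 to 4 alone it was not (0.94, adjusted p = 0.0834). It was also called in DESeq2 (adjusted p = 0.0431), in a fit of the 2 groups alone (0.0235) and without glucagon 1 (log2 1.28, adjusted p = 0.0127). In GENCODE M21, 61.4% of the exon length of Rhbg is shared with Gm38392 on the same strand, so its counts are uncertain.

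Gulo and Lect2 were called in no comparison. Gulo (chr14:65986786-66009207, minus strand), the enzyme of the last step of vitamin C synthesis in rodents, had 561.4, 435.6, 663.9 and 700.3 CPM in controls and 529.7 to 726.0 CPM over the glucagon, T3 and combination libraries. Cp had 320.8, 451.7, 508.7 and 598.9 CPM, the lowest mean of the groups with overlap (log2 -0.33 ± 0.18 against control, adjusted p = 0.207). Lect2 (chr13:56542464-56548502, minus strand), a protein secreted by hepatocytes, had 283.8, 102.9, 81.6 and 172.4 CPM in controls, a wider range than all treated libraries together (77.8 to 169.8 CPM). Its change was log2 -0.48 ± 0.27 with glucagon (adjusted p = 0.212) and -0.49 ± 0.27 with Cp (adjusted p = 0.192). Both were called without control 3, the lowest control (log2 -0.71, adjusted p = 0.0355, and -0.72, adjusted p = 0.0328). Without control 1, the highest, they were near 0 (log2 -0.04, adjusted p = 0.909, and -0.06, adjusted p = 0.865). Scaled by exon length, the control means ran from 261 CPM per kb for Gulo, 174 for Lect2 and 110 for Glul to 0.322 for Lgr5. That order holds only if reads came from whole transcripts, which the labels do not say.

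**Figure D3:**
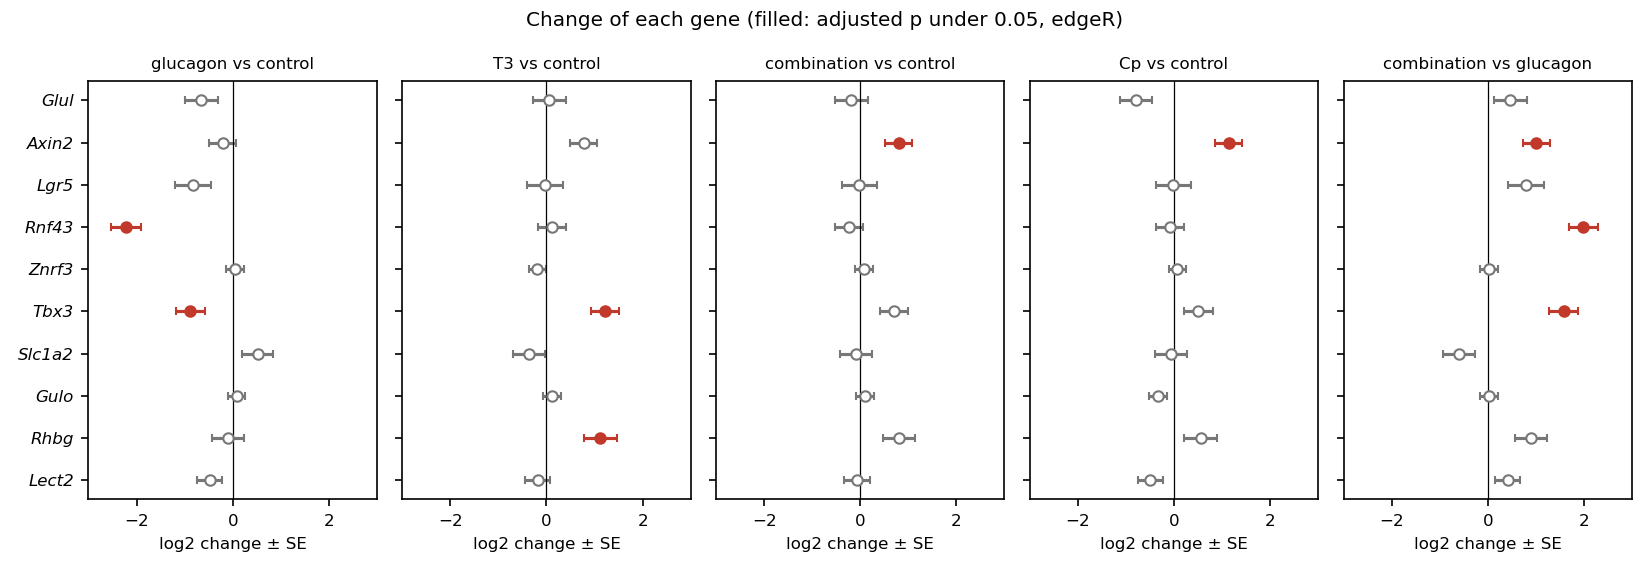
Log2 change ± SE of the 10 genes in 5 comparisons, with filled points where the edgeR adjusted p is under 0.05. Rnf43 and Tbx3 lie to the left in glucagon against control and to the right in combination against glucagon, and Znrf3 stays near 0 throughout.

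Against control, the share of the set that was called was near or below that of all genes. With glucagon 2 of the 10 genes were called against control, both lower, where 21.2% of all genes tested were called and 11.9% were called lower. The median change of the 10 was log2 -0.34, and that of all genes -0.09. Libraries did not overlap for 1 gene, Rnf43, and for 16.6% of all genes. With T3, 2 of 10 were called, Tbx3 and Rhbg, both higher (18.0% of all genes called, 7.31% higher), and none of the 10 had libraries without overlap (15.0% of all genes). In the combination and in Cp it was 1 of 10, Axin2, higher in both. Of all genes 20.1% were called in the combination (9.23% higher) and 24.4% in Cp (11.2% higher). Axin2 was also the 1 gene whose libraries did not overlap with control in either group, as for 16.6% and 17.7% of all genes. These 4 comparisons share the same 4 controls.

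Against glucagon more of the set was called, and more of all genes too. In the combination 3 of 10 genes were higher, Rnf43, Tbx3 and Axin2 (22.5% of all genes called, 12.4% higher). Those 3 were also the ones called in Cp (25.2%, 13.6% higher), and T3 added Rhbg to make 4 (31.3%, 16.4% higher). The median of the 10 was log2 0.64, 0.33 and 0.75 in these comparisons, which share the glucagon libraries, against medians of all genes within 0.01 of 0. Libraries did not overlap for 5 of 10 genes in the combination (4 higher, with Slc1a2 lower), in Cp (4 higher, with Slc1a2 lower) and in T3 (4 higher, with Slc1a2 lower). For all genes the shares were 33.2%, 33.0% and 38.3%.

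Cp and the combination were not told apart by any of the 10 genes. None was called (edgeR; 0.0310% of all genes were), 1 reached an unadjusted p under 0.05, and DESeq2 called none. The intervals still leave room for sizeable differences: log2 -0.24 to 0.91 for Axin2, -0.46 to 0.75 for Rnf43, -0.81 to 0.42 for Tbx3. Gulo was the gene of the unadjusted p (log2 -0.43, interval -0.81 to -0.04, adjusted p = 0.7). For Glul and Lect2 every Cp library was below every combination library, as for 7.31% of all genes in either direction. Against T3, Cp had 0 of 10 called and 3 at an unadjusted p under 0.05, Glul, Gulo and Tbx3 (6.36% of all genes called). Libraries of the 2 groups did not overlap for Glul, lower in Cp, and Slc1a2, higher in Cp (18.4% of all genes). The combination against T3 had 0 called and 0 at an unadjusted p under 0.05 (1.39% of all genes called), and Slc1a2 alone had no overlap (12.2% of all genes).

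Markers of other cell types were called in some of the same comparisons as Rnf43, Tbx3 and Axin2, though Axin2 was not called with glucagon against control. Of 14 macrophage markers, 9 were lower with glucagon than in control (11.9% of all genes). In the combination 12 of the 14 were higher than with glucagon (12.4% of all genes). With T3, 8 of the 14 were higher than in control (7.31% of all genes). Their summed level was 527.3 to 663 CPM in glucagon, 694.5 to 1358 in control, 1165 to 1381 in the combination, 1171 to 1631 in Cp and 1552 to 1944 in T3, and none of the 14 was at 0 in any library. Of 15 interferon-induced genes, 15 were lower with glucagon than in control (11.9% of all genes). Sums of the 15 were 136.5, 2329, 364.6 and 202.8 CPM in controls and 106 to 208.1 CPM in glucagon. Controls 1 and 4 thus lay within the glucagon range, and control 2 was far the highest. The part of control 2 in these calls was not tested. In Cp, where 24.4% of all genes were called against control, 4 of 11 hepatocyte markers were lower and none higher (median log2 -0.76). They summed to 89470 to 130300 CPM in Cp and 142500 to 286300 CPM in control. Markers of endothelial cells, which make Wnt ligands at the central vein, summed to 901.8 to 1059 CPM in glucagon and 668.6 to 986.2 CPM in control. Of these 20 markers 3 were called higher with glucagon, where 21.2% of all genes were called in either direction. The part of these cell types in the changes of the 10 genes was not tested.

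The rest of the Wnt pathway was read from lists of ligands, receptors, beta-catenin partners and other targets. For glucagon against control, 21.2% of all genes were called. With glucagon against control, 1 of 15 ligands and secreted inhibitors tested was called, Wnt9b, a ligand of central vein endothelium, which was higher (log2 1.44 ± 0.34, adjusted p = 0.00439). Of 12 receptors 2 were higher and none lower: the co-receptor Lrp5 (log2 1.20 ± 0.20, adjusted p = 0.000243) and the R-spondin receptor Lgr4 (0.79 ± 0.23, adjusted p = 0.0174). Of 20 genes of the destruction complex and its nuclear partners, Axin1 (log2 0.71 ± 0.20) and Bcl9l (0.83 ± 0.27) were higher and Btrc, which targets beta-catenin for degradation, was lower (-0.79 ± 0.15). Of 12 other Wnt targets 4 were lower and none higher, with a list median of log2 -0.40, where 11.9% of all genes were called lower. The 13 genes of that list with counts summed to 173.8, 599.7, 263.8 and 295.5 CPM in controls and 182.8 to 229.1 CPM in glucagon. Control 2 was thus the highest control, and control 1 lay below every glucagon library. The part of control 2 in these calls was not tested. The targets called lower included Tnfrsf19 (log2 -2.02 ± 0.37), Birc5 (-2.17 ± 0.46), which acts in dividing cells, and the adhesion receptor Cd44 (-1.01 ± 0.25), which immune cells also carry. Tnfrsf19 was also called lower than control in T3 (log2 -2.422 ± 0.392), the combination (-2.765 ± 0.391) and Cp (-3.722 ± 0.414).

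In the combination against glucagon, the same list of targets had 4 of 12 higher and none lower, with a median of log2 0.38. Of all genes 12.4% were called higher. Tnfrsf19 was not among the 4, with a mean of 2.91 CPM in the combination and 4.85 CPM in glucagon. Birc5 (log2 2.53 ± 0.46), the cell-cycle gene Ccnd1 (2.40 ± 0.51) and Cd44 (1.08 ± 0.25) had the smallest p. Of the 12 receptors 3 Frizzled genes were higher, Fzd8 (log2 1.35 ± 0.31), Fzd4 (1.25 ± 0.29) and Fzd7 (1.23 ± 0.31), and 4 genes were lower. The ligand list had 3 genes higher, Wnt5a (log2 1.54 ± 0.39) and Wnt11 among them, and the inhibitor Dkk4 lower. Wnt11 with a mean of 0.189 CPM in glucagon and Dkk4 with 0.177 CPM in the combination were near the level of 3 counts, so no fold is given. In T3 against control 18.0% of all genes were called. Of 15 ligands and secreted inhibitors the 1 called was the inhibitor Dkk4, which was lower. Its mean in T3 was 0.0328 CPM, under the level of 3 counts, so no fold is given. The other lists had 2 of 12 receptors (Fzd8 at log2 1.26 ± 0.31, Fzd5 at -0.66 ± 0.20), 2 of 20 complex genes and 2 of 12 targets called. Of those 2 targets, Cd44 was higher (log2 0.71 ± 0.25) and Tnfrsf19 lower.

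**Figure D4:**
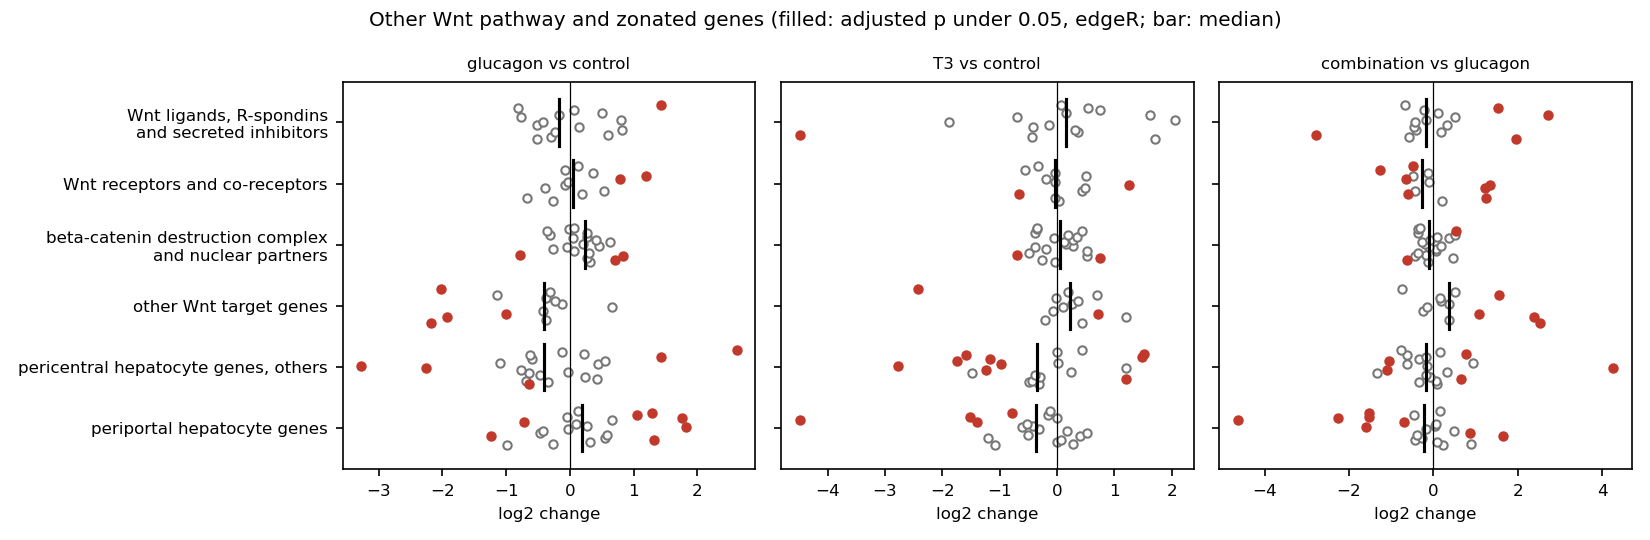
Log2 change of each tested gene of 6 lists (points, filled where the edgeR adjusted p is under 0.05) with the list median (bar), in glucagon against control, T3 against control and combination against glucagon. The other Wnt targets have 4 genes called lower in the first panel and 4 called higher in the third, with Tnfrsf19 among the former and not the latter.

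Other genes named as pericentral did not follow 1 direction. Of 20, glucagon had 2 higher and 3 lower than control, T3 3 and 6, the combination 5 and 4, and Cp 4 and 7. Of all genes 21.2%, 18.0%, 20.1% and 24.4% were called in the same order. The list medians were log2 -0.41, -0.35, -0.34 and -0.41 in that order, against -0.09 to -0.04 for all genes. Cyp7a1, which starts the conversion of cholesterol to bile acids, was at log2 -2.26 ± 0.45 with glucagon against control and 4.27 ± 0.49 in the combination against glucagon, the same directions as Rnf43. Slc22a3, a cation transporter, was higher with glucagon than in control (log2 2.62 ± 0.32), in the combination (1.85 ± 0.32) and in Cp (2.01 ± 0.32). Cyp2e1, a classical pericentral cytochrome, was lower in Cp (log2 -2.52 ± 0.39, adjusted p = 0.000111) and in the combination (-1.87 ± 0.38, adjusted p = 0.00178) than in control, while Glul was not called in either. The Cyp2e1 means were 14470 CPM in control, 8479 in glucagon, 6108 in T3, 3952 in the combination and 2524 in Cp. Its control levels were 24140, 3015, 15520 and 15190 CPM, with control 2 low as for Glul. Of 20 periportal genes glucagon had 5 higher and 2 lower than control, where 21.2% of all genes were called. G6pc of glucose release (log2 1.82 ± 0.23) and Asl of the urea cycle (1.32 ± 0.18) led the higher ones.

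Within groups the 10 genes did not vary as a unit. Over their 45 pairs, Pearson's r of log2 CPM around the group means over 20 libraries had a median of 0.384 and ran from -0.315 to 0.903. Over the 16 libraries without controls the median was 0.156 and the range -0.585 to 0.773. The highest pair was Glul with Slc1a2, at 0.903 with controls and 0.153 without them. Rnf43 with Tbx3 gave 0.837, and 0.589 without controls, and Axin2 with Rnf43 0.688, and 0.773 without them. The libraries share depth and lanes, so these values only describe how the genes moved in them.

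Among 5313 genes averaging 20 CPM or more, those most like a gene of the set over the 20 libraries were listed for 4 of them. For Axin2 they were Arhgef7 (r = 0.903), Zfp768, Tpcn1, Agpat1 and Jup (0.885). Glul was most like Fam55b (0.853), Fggy, Pex19, Pdxdc1 and Serpina1a (0.828). Lect2 was most like Dhrs7b (0.866), Bckdhb, Leap2, Fmo1 and Swi5 (0.811), and Gulo like Cyp2c50 (0.793), Shmt2, Mpst, Cyp4f14 and Dcxr (0.714). By rank (Spearman) the values were 0.8 to 0.886 for Axin2, 0.785 to 0.868 for Glul, 0.595 to 0.767 for Lect2 and 0.501 to 0.728 for Gulo. No gene of the set was among the genes listed, but Lgr5, Znrf3 and Rhbg averaged under 20 CPM and could not appear.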

How the data were processed

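The deposited values are raw counts per gene symbol from 20 liver libraries. The authors used HTSeq and mm10, as the submitters' processing notes state, and the labels' protocols name a Qiagen kit for RNA and Lexogen chemistry for libraries. The sources used here give no aligner, annotation or strand setting, so overlapping and antisense genes may share reads. Each library is 1 mouse.

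Counts were tested in R 4.3.3 with edgeR 4.0.16 (limma 3.58.1). Genes were kept by filterByExpr (minimum count 10, minimum total 15), which left 12907 and dropped 412. TMM factors and a quasi-likelihood fit of 5 group means over 20 libraries were used (15 residual and 5 prior degrees of freedom, biological coefficient of variation 27.8%). Standard errors come from the log2 change and its F, and intervals are 95%. Departure from additivity is combination minus glucagon minus T3 plus control. The fit was tested on simulated counts of glucagon against control. It recovered 69% of 100 genes changed by log2 1 and 97% of 100 changed by log2 2. Of its 170 calls 2.35% were false. Genes as scarce as Lgr5 were not among those changed. Totals per library set the precision: a count of 3 was 0.145 to 0.479 CPM, counting error only. No 2 libraries agreed within sampling noise.

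The genes and lists were chosen with earlier results of these data known. All 10 genes were named, from each other list up to 3 genes of smallest p in a contrast, and 5 most-like genes by r of log2 CPM (prior count 2). Cyp2e1 in controls was added after its values were seen. Positions are from GENCODE M21 on GRCm38, by symbol.

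Replicate numbers mark lanes 1 to 4 in 4 groups, which pairs 16 libraries by lane. Same-numbered libraries correlated at -0.318 to 0.462 around group means, over 0.1 in 10 of 24 pairs. Alternatives were RLE factors, no filter, DESeq2 1.42.0, fitting only the 2 groups compared (4 for additivity), replicate number as a block, leaving out control 2 with glucagon 3, and each library left out. The block on lanes 1 to 4 alone was added after the data were seen.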

Additional observations from a re-analysis of the deposited data

Results flagged for a closer look

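Lgr5 in T3 replicate 3 stood at 5.898 CPM, and the gap to the next T3 library was 0.949 of the group's range. It was the 1 such library found in 50 groups of 4 libraries examined, where chance would find about 1 in 20.

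The effect of T3 on Rnf43 differed with and without glucagon, by log2 1.867 in a test of the difference itself (edgeR adjusted p = 0.0125). T3 replicates share lane 5, which cannot be told apart from T3 in this value.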

How the results depend on the processing

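Of 1650 changes of the 10 genes under alternatives, 1587 kept their call, 24 lost it and 39 gained it. The sign changed in 114, none called on either side, with a size of at most log2 0.404 and an adjusted p of at least 0.27 (edgeR or DESeq2). With a fit of the compared groups alone, genes of the set called were 1 (Cp against T3), 5 (Cp against glucagon), 7 (combination against glucagon), 1 (glucagon against control) and 0 (T3 or combination against control). All genes called were then 1562, against 821 with all groups, for Cp against T3; 16 (4) for Cp against combination; 1208 (3144) for Cp, 503 (2317) for T3, 918 (2598) for combination and 976 (2732) for glucagon against control; and 523 (179) for combination against T3. DESeq2 called 28 for Cp against combination and 331 for combination against T3. With replicate number as a block, 1 of the 10 was called for glucagon against control. That block on lanes 1 to 4 alone gave 2, Axin2 and Tbx3, for combination against control. Combination against control also fell to 0 with RLE factors and without control 2 and glucagon 3, which gave 2 for Cp against control.

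As each library was left out, genes of the set called ran from 1 to 4 and all genes from 1988 to 3760 for glucagon against control, 1 to 3 and 1528 to 3179 for T3, 0 to 2 and 1855 to 3552 for combination, and 1 to 3 and 2333 to 3719 for Cp. They ran 3 to 3 and 2264 to 2470 for combination against glucagon, 3 to 4 and 2627 to 2768 for Cp, and 3 to 4 and 3335 to 3630 for T3. Against T3 they ran 0 to 0 and 406 to 708 for Cp and 0 to 0 and 83 to 135 for combination. Cp against combination gave 0 to 0 and 1 to 5, and additivity 1 to 1 and 343 to 821. Controls spread most (biological coefficient of variation 43.1%, others 18.9% to 25.9%), Lgr5 rests on 15 to 91 counts, and T3 has the fewest reads. The causes of these shifts were not tested.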
